A study of Mus musculus with 54 samples.

Results

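Kidney was compared between mice that swam and mice that did not, using the arrays labelled as kidney: 4 control and 4 swim arrays, 8 of the 54 in the series. All mice were labelled C57BL6 and 14 weeks old. The swim mice entered at 11 to 12 weeks, were acclimated for 9 days with sessions that grew by 10 minutes a day, and then swam for 3 weeks in 2 daily sessions of 90 minutes, in the morning and afternoon, with 4 hours of rest between them. What the control mice did in that time, the sex of the mice, the hour at which kidneys were taken and whether each array stands for a separate mouse are not given in the labels. The p-values below therefore measure the spread between these arrays, which may be partly technical. The comparison asks which kidney genes differ after repeated swimming, in a series that also measured other organs and muscle.

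The kidney filters blood in the glomerulus and reclaims most of the filtrate along the nephron. The proximal tubule takes back glucose, amino acids, phosphate and filtered protein and secretes organic ions, the thick ascending limb and distal tubule take back salt, and the collecting duct sets the final water, urea, acid and potassium content of urine. Many of these transporters follow a daily rhythm set by the circadian clock, and the organ also makes glucose, handles iron, activates vitamin D and controls blood pressure.

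Expression was read as probe set intensity on a linear scale. Each value below is log2(intensity + 16) after quantile normalization of the 8 kidney arrays, and each difference is swim minus control on that scale ± the standard error of the limma fit, so that 1 unit is 2-fold (folds of dim genes are understated by the added 16). The median probe set signal of an array lay between 52.82 and 100.34 intensity units, and control replicates 9 and 10 and swim replicate 13 were the dimmest. No pair of arrays was identical: as deposited, a pair had equal values at 4 to 35 of the 25917 probe sets. Along the first principal component, 49.2% of the variance between arrays, the control arrays lay between -11.87 and -9.89 and the swim arrays between 9.00 and 13.76.

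The label kidney was borne out by its markers. All the array's markers of the proximal tubule (14), thick ascending limb (9), distal convoluted tubule (5), collecting duct principal cell (9), intercalated cell (12) and podocyte (7) were above the filter on low signal at 5.80. Umod, the most abundant thick ascending limb transcript, was the brightest probe set on every array, so quantile normalization gave it the same 15.31 throughout. All 8 adrenal cortex markers and all 12 neutrophil markers on the array were below the filter. Brown adipocyte Ucp1 read between 6.54 in swim replicate 16 and 10.55 in control replicate 11, and Alb, the main liver transcript, read 10.41 in swim replicate 15 against 7.27 to 8.19 in the other arrays. Neither gene passed, though with the values as deposited Ucp1 was called lower and Alb higher. Y-linked Kdm5d lay between 7.57 and 7.94 and Xist, below the filter, between 4.66 and 4.95 on all 8 arrays. By these markers all 8 arrays read as male, although the labels give no sex.

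Of 11610 genes tested, 2836 passed an adjusted p of 0.05, which is 24.4%. Of these, 1258 were higher in swim kidneys (10.8% of those tested) and 1578 were lower (13.6%). Most of these differences were small, with 2562 under 0.5 log2 units in size, and 26 genes changed at least 2-fold, 11 upward and 15 downward. For 3214 genes, or 27.7%, the swim and control arrays did not overlap. The split depended on the scaling: 44.4% of the calls were rises here, but 26.3% of 2791 calls under median centring of each array, which moved the all-gene median from -0.0019 to -0.04. With the values as deposited, where that median was 0.11, 42 genes passed, 36 of them among the 2836. With the 3 dimmest arrays left out, 1074 genes passed, 1019 of them among the 2836.

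Of 178 genes named below that passed, 28 also passed with the values as deposited. They were Npas2, Arntl, Ciart, Per2, Per3, Bhlhe41, Slc7a12, Slc16a1, Cyp4a14, Lcn2, Cdkn1a, Cxcl10, Cfi, Ifi27l2a, Myh11, Rgs5, Dnajb1, Kynu, Ces2b, Ces1g, Ppard, 9030619P08Rik, Slc16a6, Kcnt1, Id1, Snora73a, Snora73b and Snord104. With any 1 of the 8 arrays left out, 171 of the 178 passed each time, and the exceptions (Rora, Hlf, Slc12a1, Odc1, Cyp4a12a, Ccl2 and Hspb1) are given where those genes appear. Adding the mean of the brown adipocyte markers to the model left all 178 past the threshold. The summed signal of those markers overlapped between groups (1905 to 3739 in controls, 1688 to 2912 in swim kidneys). White adipocyte markers were not added to the model, so a part of white fat was not tested. Without the 3 dimmest arrays 115 of the 178 passed, and in 1 fit of all 54 arrays 53 passed.

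The lists of genes by function differed in which way their members moved. Every count of members below stands against 10.8% of all genes that rose and 13.6% that fell. No difference in share was tested. Among 45 lists, members of the clock output list and the female-high list were called upward most often as a share of those measured, and members of the MHC class II and chemokine lists downward. The lists were chosen with earlier results of these data known, so this order is a description and not a test. Of 10 listed clock output genes, 8 were measured.

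**Figure D1:**
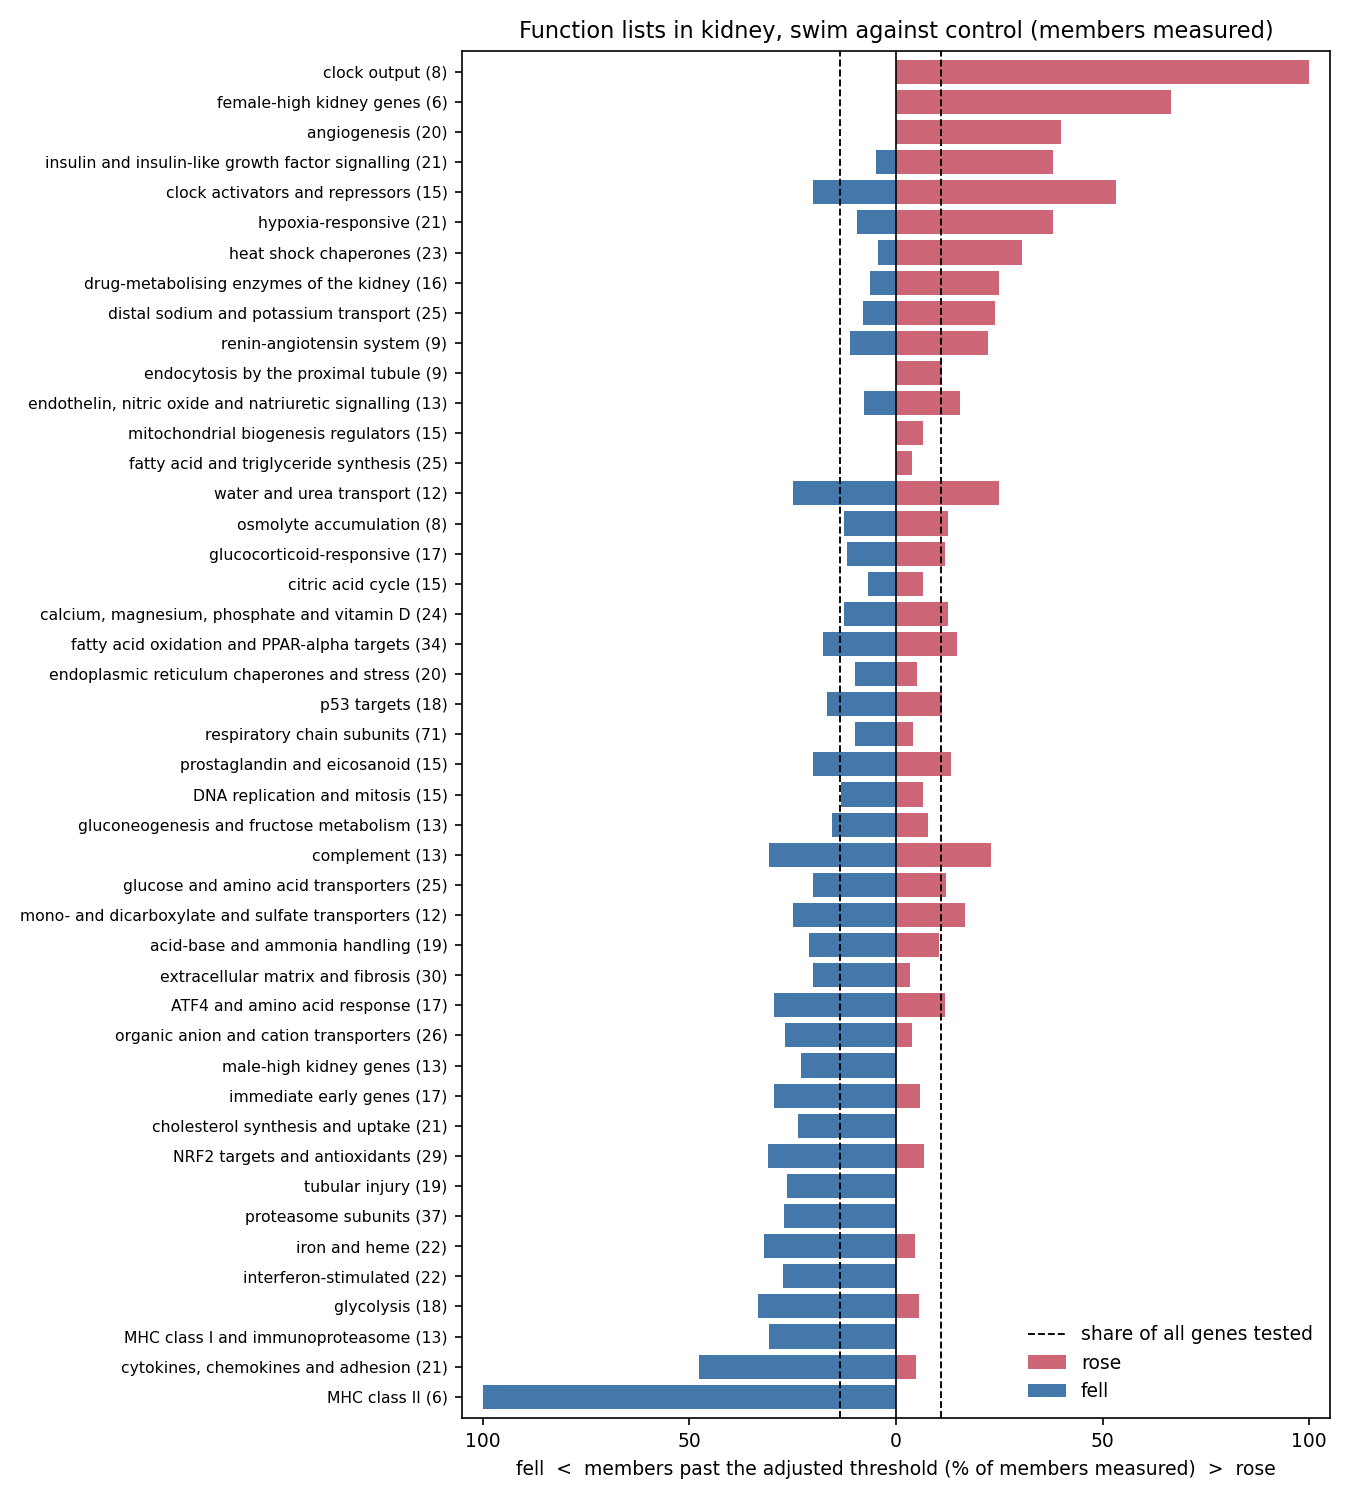
Share of measured members of each function list that passed an adjusted p of 0.05 upward (right) or downward (left) in swim kidneys, in percent, with the number measured in brackets and, as dashed lines, the shares over all genes tested (10.8% and 13.6%). All 8 clock output genes lie to the right and all 6 MHC class II genes to the left.

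The molecular clock is a feedback loop. BMAL1 (encoded by Arntl) pairs with CLOCK or NPAS2 to activate E-box genes, among them the period, cryptochrome and Ciart repressors, and proteins such as TEF, HLF and the REV-ERB receptors pass the rhythm on to other genes. In swim kidneys Npas2, Arntl and Clock fell, and the period genes and all measured outputs rose. Of 15 measured activators and repressors, 8 rose and 3 fell, with a median of 0.24, and of 8 measured clock output genes, all 8 rose, with a median of 0.50.

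Npas2 (probe set 10345675) read 8.07, 7.76, 8.20 and 7.88 in control replicates 9 to 12 and 5.95, 5.93, 6.03 and 6.20 in swim replicates 13 to 16. Every swim array was lower than every control array, and Npas2 fell by 1.95 on the log2 scale (SE 0.10), or 3.86-fold, with a limma adjusted p of 1.92e-05. Arntl fell by 1.37 (SE 0.09), and Clock, which encodes the other partner of BMAL1, fell by 0.23 (SE 0.06). The repressors moved the other way. Ciart (probe set 10373452) read 5.40, 6.58, 5.79 and 6.23 in the controls and 7.54, 7.71, 7.90 and 7.55 in the swim arrays, a rise of 1.67 ± 0.21. Control replicate 9 was the lowest array for Ciart, Per2 and Per1, and the control arrays were more spread than the swim arrays for each of them. Per2 rose by 1.63 ± 0.15, Per3 by 1.12 ± 0.09, Per1 by 0.71 ± 0.14 and Cry2 by 0.52 ± 0.09. Bhlhe41, a repressor that competes for E-boxes, rose by 1.16 ± 0.11. Of the nuclear receptors of the loop, Nr1d2 (REV-ERB beta) rose by 0.57 ± 0.07. Rora rose by 0.24 ± 0.07, but passed in 1 of the 8 fits that left out an array, the one without swim replicate 13; its values in the other 7 lay between 0.17 and 0.26. Median centring also lost its call.

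Among the outputs, Lonrf3, a RING finger gene, rose by 0.68 ± 0.09, Wee1, a kinase that holds back mitosis, by 0.63 ± 0.09 and Tspan4, a tetraspanin, by 0.63 ± 0.10. Usp2, a deubiquitinase, read 9.85, 10.35, 10.09 and 10.13 in the controls and 10.59, 10.59, 10.65 and 10.63 in the swim arrays, which lay within 0.06 of each other. Tef rose by 0.48 ± 0.08, Nampt, which makes the NAD precursor nicotinamide mononucleotide, by 0.43 ± 0.05 and Coq10b by 0.36 ± 0.08. Hlf rose by 0.26 ± 0.07, and did not pass without swim replicate 13 (0.23) or swim replicate 15 (0.25), or under median centring. Time of day was not recorded in the labels for either group, and its part in these differences was not tested.

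**Figure D2:**
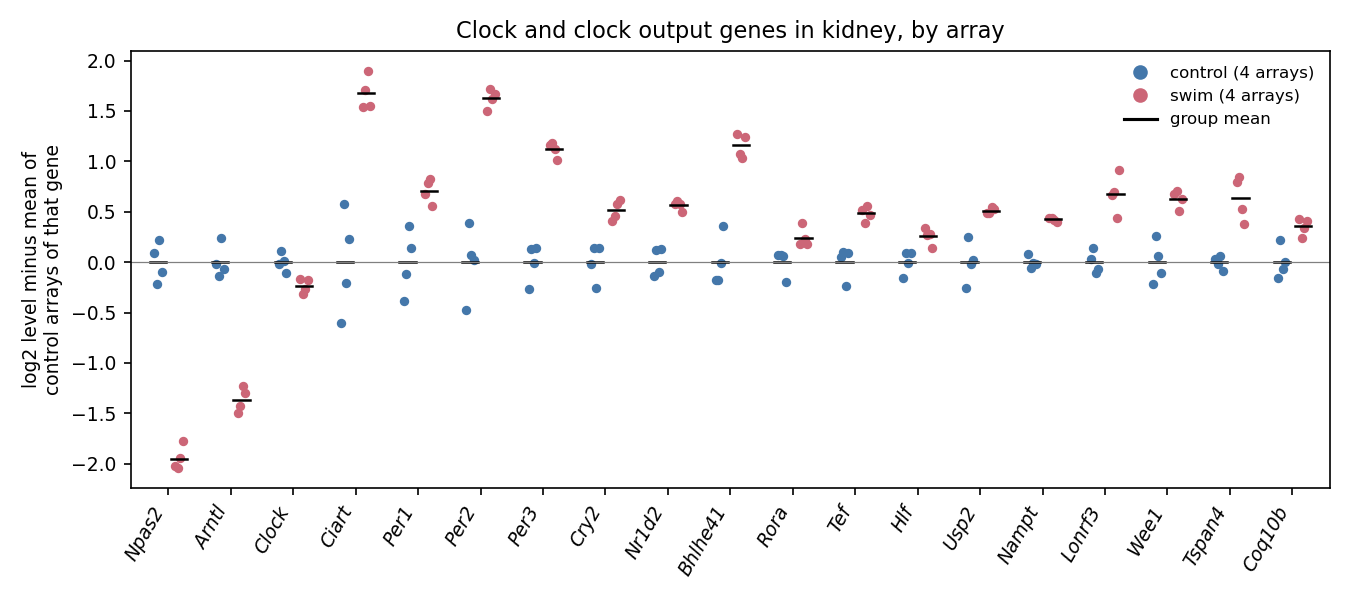
Log2 level of clock genes in each kidney array (4 control, blue; 4 swim, red), minus the mean of that gene's control arrays, with a line at each group mean. Npas2, Arntl and Clock lie below their controls in every swim array, and the 16 other genes lie above them in every swim array.

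The loop's proteins bind E-boxes and D-boxes, so promoters were searched for those letters, and stretches from 6 of the genes that rose are printed as examples. RefSeq promoters (GRCm38.p6, 250 bases before to 50 after the start) were found for 12 of the 15 activators and repressors and 7 of the 8 outputs, and were searched on both strands. A gene counted if any of its promoters held the letters. The shares of all promoters count each promoter singly, so they are not a like measure. The E-box CACGTG was present in 3 of 12 (Per1, Ciart, Bhlhe41) and in 4 of 7 (Tef, Tspan4, Coq10b, Lonrf3), against 7.15% of all 32851 promoters. All 7 of these genes rose, but genes without an E-box rose as well. Of the activators and repressors with a promoter 7 rose, 3 of them with the letters. All 7 outputs with a promoter rose, 4 of them with the letters, so a rise there says nothing of E-boxes. The D-box TTATGTAA or TTACGTAA, which TEF and HLF bind, was present in Per3 and Coq10b, against 1.06% of promoters, and the ROR element TAGGTCA in Arntl and Nfil3, against 2.61%. In the stretches below, written 5′ to 3′ on the strand of the gene, capitals mark the E-boxes, or in Per3 the D-boxes.
Ciart, chr3:95882247-95882364, minus strand, bases -136 to -19 from the start: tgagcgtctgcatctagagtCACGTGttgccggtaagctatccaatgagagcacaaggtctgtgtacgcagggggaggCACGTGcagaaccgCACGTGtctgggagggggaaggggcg
Per1, chr11:69098763-69098808, plus strand, bases -186 to -141: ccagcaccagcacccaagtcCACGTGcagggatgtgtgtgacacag
Bhlhe41, chr6:145865548-145865593, minus strand, bases -173 to -128: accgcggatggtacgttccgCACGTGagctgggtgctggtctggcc
Tef, chr15:81802526-81802571, plus strand, bases -147 to -102: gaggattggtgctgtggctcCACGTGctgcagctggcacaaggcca
Lonrf3, chrX:36328344-36328389, plus strand, bases -65 to -20: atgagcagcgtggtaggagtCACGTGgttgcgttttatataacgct
Per3, chr4:151044796-151044890, minus strand, bases -225 to -131: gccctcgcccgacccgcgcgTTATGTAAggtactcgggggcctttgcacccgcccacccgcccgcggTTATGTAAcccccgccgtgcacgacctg
Ciart, the repressor with the largest rise, carried 3 E-boxes in its stretch and Per3 carried 2 identical D-boxes. These matches describe letters in the window and were not tested as binding sites.

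Swim effects on the clock were compared with those in liver (3 control and 4 swim arrays) and visceral fat (4 and 4), each tissue fitted with its own spread. The difference between kidney and liver passed for 803 of 10263 genes (7.82%) and that between kidney and visceral fat for 1255 of 10507 (11.9%). Several clock genes changed less in kidney. Ciart rose by 1.67 in kidney, 3.29 in liver and 2.95 in fat, and the differences, kidney minus the other tissue, were -1.62 ± 0.27 for liver (limma-based adjusted p = 0.00159) and -1.27 ± 0.24 for fat (adjusted p = 0.00296). Arntl, which fell in all 3, differed by 1.0 ± 0.17 from liver and 0.91 ± 0.13 from fat. Usp2 differed most from liver, at 0.51 ± 0.09 in kidney against 2.71 ± 0.32, and Wee1 differed from liver by -1.27 ± 0.16. From fat, Hlf differed by -1.23 ± 0.16, Per3 by -0.97 ± 0.12 and Tef by -0.79 ± 0.12. Lonrf3 went the other way, at 0.68 ± 0.09 in kidney, -0.29 ± 0.14 in liver and -0.52 ± 0.14 in fat. The differences for Npas2 and Per2 did not pass: kidney minus liver was -0.38 ± 0.22 and 0.11 ± 0.24, and kidney minus fat was 0.11 ± 0.17 and -0.02 ± 0.22.

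**Figure D3:**
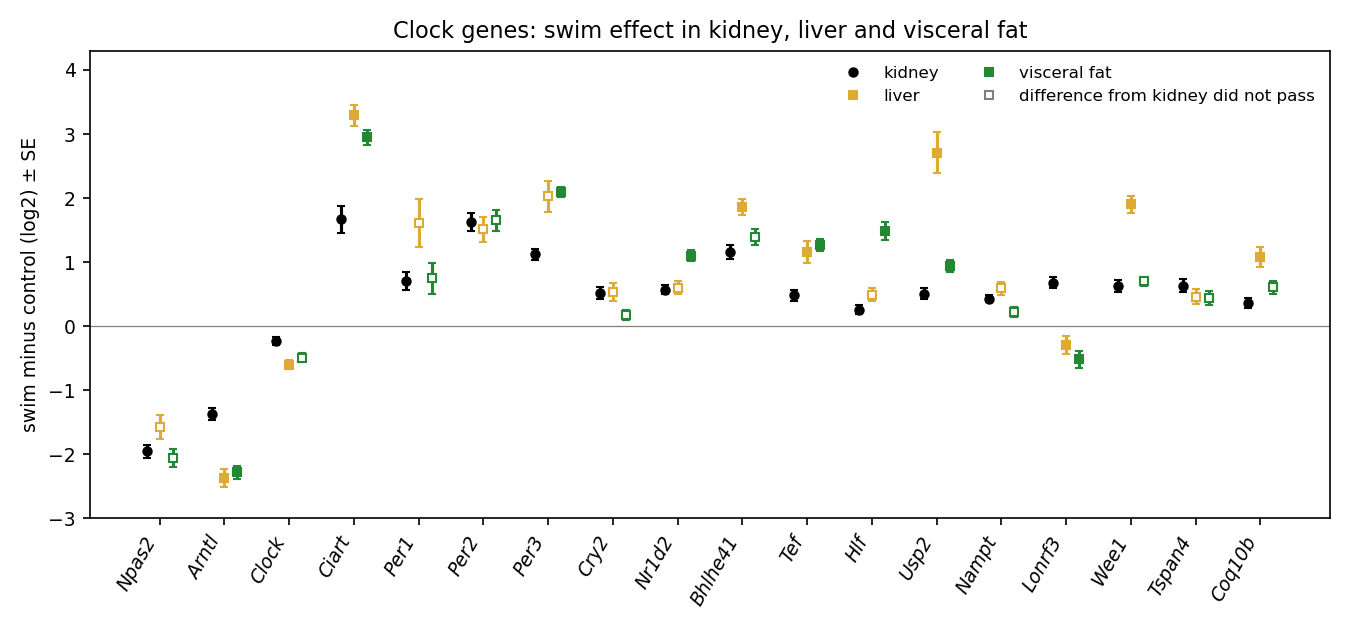
Swim minus control in log2 units ± SE for clock genes in kidney (black circles), liver (yellow squares) and visceral fat (green squares). Filled squares mark tissues whose effect differs from that in kidney at an adjusted p of 0.05, and Ciart, Arntl, Tef, Usp2 and Lonrf3 have both squares filled.

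Outside the clock, the gene of smallest p for a lower effect in kidney than in liver was the hepcidin gene Hamp2, at -0.06 ± 0.09 in kidney and 4.37 ± 0.09 in liver, a difference of -4.42 ± 0.13. Mfsd2a, a lysolipid transporter, stood at -0.92 ± 0.26 in kidney and 3.02 ± 0.27 in liver, a difference of -3.94 ± 0.37. The differences were -1.32 ± 0.13 for the phosphate transporter Slc20a1, -1.04 ± 0.11 for Acss3 and -1.02 ± 0.11 for Wdr83os. Syne1 (0.83 ± 0.08), Phxr4 (0.68 ± 0.08) and the folate receptor gene Folr2 (1.5 ± 0.19) had higher effects in kidney. Against fat, the kidney effect was higher for Angpt1, an endothelial ligand, by 1.21 ± 0.10, for Sfrp2, a secreted WNT modulator, by 1.53 ± 0.17 and for Ston1 by 0.94 ± 0.10, and lower for Rbm38, an RNA-binding protein gene, by -1.59 ± 0.14. With the values as deposited the differences for Syne1, Wdr83os, Acss3 and Phxr4 from liver and for Ston1, Per3, Arntl and Tef from fat did not pass. The number of genes that differed from liver was 518 without liver control replicate 49 and 483 without liver swim replicate 54, and the number that differed from fat was 819 without visceral fat swim replicate 7.

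Glucocorticoid hormones rise with stress and act through the receptor encoded by Nr3c1. Of 17 measured target genes, 2 rose, 2 fell and 13 did not pass, with a median of 0.10. The shares that rose and fell were near those of all genes (10.8% and 13.6%). Tsc22d3 (GILZ) rose by 0.74 ± 0.17 and Per1, also a clock gene, by 0.71, while Dusp1, a phosphatase of MAP kinases, fell by 0.73 (SE 0.10). Zbtb16 (0.84 ± 0.30), Sgk1 (0.23 ± 0.17), Fkbp5 (-0.10 ± 0.14), Pdk4 (-0.51 ± 0.26) and Nr3c1 itself (0.10 ± 0.06) did not pass, although Zbtb16 was called higher with the values as deposited. Without control replicate 11 the count of rises was 5, and without control replicates 10, 11 or 12 or swim replicates 13 or 16 the count of falls was 1.

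Salt transport in the thick ascending limb and distal tubule is switched by the WNK kinases and by aldosterone acting through the receptor encoded by Nr3c2. Of 25 measured genes of distal sodium and potassium transport, 6 rose and 2 fell, with a median of 0.10. Over all genes 10.8% rose and 13.6% fell. Wnk4 (probe set 10381311) read 9.73, 9.65, 9.66 and 9.69 in the controls and 10.30, 10.40, 10.17 and 10.22 in the swim arrays. The groups were well apart, and the rise was 0.59 ± 0.06, or 1.51-fold (limma adjusted p = 0.000250). Wnk1 rose by 0.20 ± 0.05 and Nr3c2 by 0.27 ± 0.04. Hsd11b2, the enzyme that keeps cortisol-like steroids off that receptor, fell by 0.27 (SE 0.06). Slc12a1, the furosemide-sensitive cotransporter, rose by 0.21 ± 0.05 but did not pass without swim replicate 16 (0.18), and Slc12a3, the thiazide-sensitive one, stood at 0.10 ± 0.06 and did not pass. The count of rises was 3 without swim replicate 16, and the count of falls was 1 without control replicates 9 or 10 or swim replicates 13, 14 or 15. Under median centring, 2 rose and 3 fell, and neither Wnk1 nor Slc12a1 passed.

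Among peptidases of the renin-angiotensin system, Mme (neprilysin) rose by 0.30 ± 0.06 and Enpep (aminopeptidase A, which degrades angiotensin II) by 0.22 ± 0.06, and Rnpep fell by 0.27 (SE 0.06). Of 9 genes of that list measured, 2 rose and 1 fell, with a median of -0.11, against 10.8% and 13.6% of all genes. Under median centring 0 rose in limma and 4 fell, and neither Mme nor Enpep passed.

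Water reabsorption in the collecting duct rests on the channel AQP2, which vasopressin brings to the cell surface, and urea recycling rests on the transporters of the Slc14a2 gene. Both were lower in swim kidneys. Aqp2 (probe set 10426760) read 10.32, 10.36, 10.43 and 10.19 in the controls and 9.70, 9.99, 9.84 and 9.83 in the swim arrays, a fall of 0.48 (SE 0.07). Slc14a2 (probe set 10459879) read 9.22, 9.19, 9.22 and 9.19 against 8.85, 8.86, 8.83 and 8.85, a fall of 0.36 (SE 0.04) with almost no spread within a group. Avpr1a, a vasopressin receptor, fell by 0.46 (SE 0.08). A pair of other water channels rose: Aqp4, on the basal side of collecting duct cells, rose by 0.61 ± 0.11, and Aqp6, of intercalated cells, by 0.39 ± 0.09. In all, 3 of 12 members rose and 3 fell, with a median of -0.06; 6 fell under median centring, and 0 rose in limma without the 3 dimmest arrays. The summed signal of the principal cell markers on the array was 15639 to 16886 in controls and 14324 to 15524 in swim kidneys, and that of the intercalated cell markers was 6782 to 7013 and 7347 to 8062. Neither pair of ranges overlapped, although the median of the principal cell markers was 0.04, with 1 rise, 2 falls (Aqp2 and Hsd11b2) and 6 that did not pass. In whole tissue, fewer cells of a type and less RNA per cell cannot be told apart, here and for every cell type below.

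Nfat5, the transcription factor that raises osmolyte uptake when the medulla is salty, read 9.05, 8.97, 8.90 and 8.91 in the controls and 9.47, 9.46, 9.42 and 9.5 in the swim arrays, a rise of 0.51 ± 0.05. Of the 8 measured genes of osmolyte accumulation, itself included, 1 rose and 1 (Gdpd5) fell, shares near those of all genes (10.8% and 13.6%). The fall passed in 4 of the 8 fits with 1 array left out (it was lost without control replicates 9 or 10 or swim replicates 15 or 16).

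For mineral handling, Vdr, the vitamin D receptor, read 11.76, 11.76, 11.73 and 11.69 in controls and 11.39, 11.31, 11.35 and 11.38 in swim kidneys, a fall of 0.38 (SE 0.04). Trpm6, the magnesium channel of the distal convoluted tubule, rose by 0.53 ± 0.08 and S100g, the calcium-binding protein calbindin-D9k, by 0.29 ± 0.06, while Slc20a2, a phosphate transporter, fell by 0.40 (SE 0.07). Slc34a1, the main phosphate transporter of the proximal tubule, stood at -0.04 ± 0.04 and was called lower only under median centring. Cyp24a1 and Cyp27b1, which inactivate and activate vitamin D, stood at -0.78 ± 0.34 and -0.57 ± 0.26 with wide spreads and did not pass. In this list 3 of 24 members rose and 3 fell, shares near those of all genes (10.8% and 13.6%). There were 5 falls without control replicate 12 and 8 under median centring. S100g did not pass with that centring.

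Slc7a12 (probe set 10490867), an amino acid transporter gene that is higher in female kidney, read 8.81, 8.81, 9.28 and 8.40 in the controls and 10.13, 11.21, 10.12 and 10.35 in the swim arrays. It rose by 1.63 ± 0.24, or 3.09-fold (limma adjusted p = 0.00161), and swim replicate 14 was the highest array. Slc7a9, of the cystine transporter, rose by 0.28 ± 0.06, except under median centring, where it did not pass. Slc38a3, the glutamine transporter that feeds ammonia production, fell by 0.45 (SE 0.11), Slc1a4, a neutral amino acid exchanger, by 0.50 (SE 0.10) and Slc6a13, which carries GABA and betaine, by 0.33 (SE 0.06). Slc5a2, the glucose carrier SGLT2, stood at -0.11 ± 0.08 and did not pass, except under median centring, where it was called lower. Over the glucose and amino acid transporters, 3 of 25 rose and 5 fell, shares near those of all genes (10.8% and 13.6%), with 3 falls without control replicate 9 or 10.

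Among carriers of lactate and other carboxylates, Slc16a1 (MCT1, probe set 10495035) read 9.53, 9.25, 9.21 and 8.95 in the controls and 8.27, 8.32, 8.11 and 8.07 in the swim arrays. It fell by 1.04 (SE 0.11), or 2.06-fold. Slc16a14, whose substrate is not settled, fell by 0.59 (SE 0.15), with swim replicate 16 (9.90) above the lowest control (9.83). Slc5a12, the sodium-coupled lactate carrier of the proximal tubule's brush border, rose by 0.36 ± 0.04 from control values of 12.79, 12.75, 12.80 and 12.77 to 13.12, 13.19, 13.09 and 13.16, and Slc16a7 (MCT2) rose by 0.30 ± 0.05, but not under median centring. Thus 2 of 12 members of that list rose and 3 fell.

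Secretion of organic ions is the work of the Slc22 family. Of 26 measured organic ion transporters, 7 fell and 1 rose, with a median of -0.03. Slc22a7 (OAT2) fell by 0.65 (SE 0.14), Slc22a2 (OCT2) by 0.39 (SE 0.06) and Slc22a12 (URAT1, the urate exchanger) by 0.29 (SE 0.06). The count of falls was 4 without control replicate 9 or 10 or swim replicate 15, and 11 under median centring. Without swim replicate 14 the count of rises was 3. Cubn (cubilin), a receptor for filtered protein, rose by 0.27 ± 0.04, and its partner Lrp2 (megalin) stood at 0.12 ± 0.05 and did not pass. Cubn did not pass under median centring.

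In acid-base handling, the brush border carbonic anhydrases Car15 and Car4 fell by 0.40 (SE 0.08) and 0.24 (SE 0.06), while 2 intercalated cell genes, the proton pump subunit Atp6v1b1 and the ammonia channel Rhbg, rose by 0.25 ± 0.05 and 0.24 ± 0.06. Of 12 intercalated cell markers, 4 rose and none fell in limma (0 also lower under median centring, where 2 rose; Atp6v1b1 and Rhbg did not pass there). By segment, the summed signal of the proximal tubule markers overlapped between groups (118745 to 122901 in controls, 120127 to 123512 in swim kidneys). That of the thick ascending limb markers did not (68845 to 70117 and 70263 to 71608). Of these 9 markers 1 rose and 8 did not pass, with a median of 0.03. Their sum includes Umod, which quantile normalization held equal on all arrays.

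**Figure D4:**
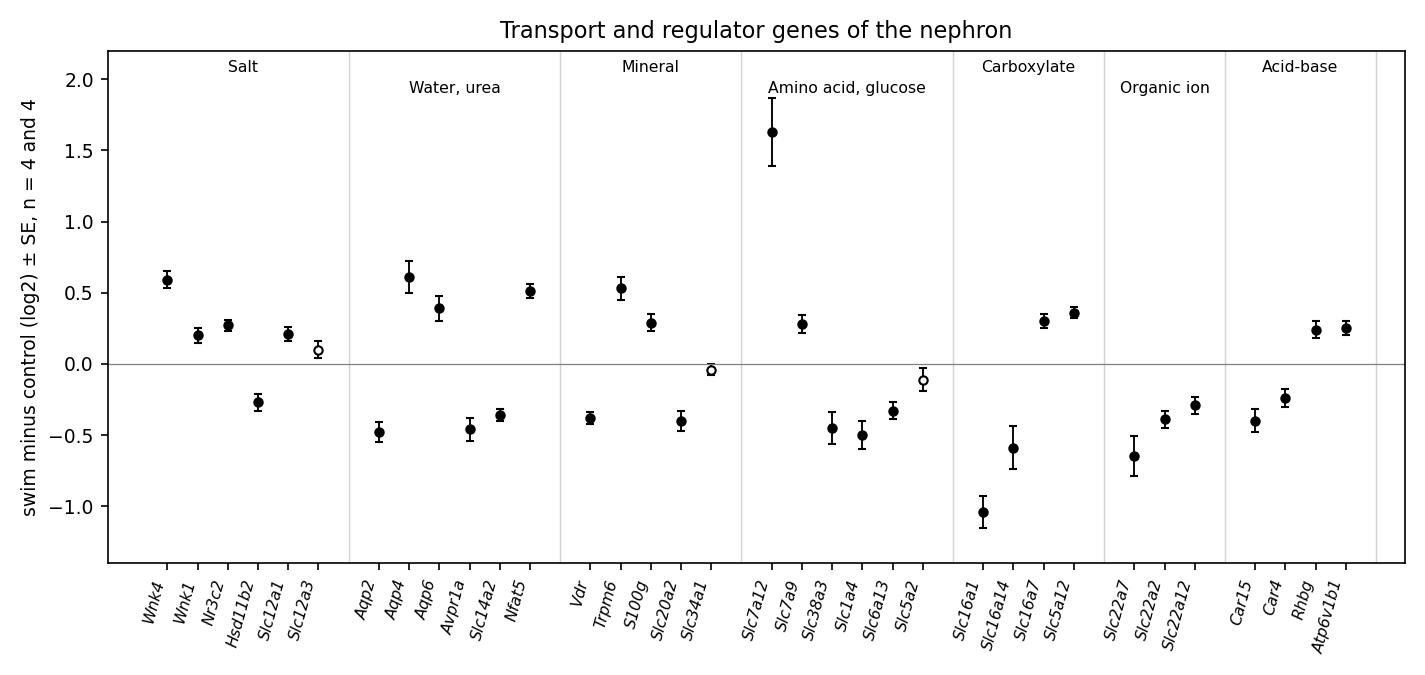
Swim minus control in log2 units ± SE (4 against 4 arrays) for transporters and regulators, grouped by what they handle. Filled points passed an adjusted p of 0.05, open points did not, and Slc7a12 (1.63) and Slc16a1 (-1.04) lie farthest from 0.

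PPAR-alpha, encoded by Ppara, drives fatty acid oxidation, which fuels the proximal tubule. Cyp4a14 (probe set 10515187), a fatty acid hydroxylase gene under PPAR-alpha whose close relatives may share its probes, read 8.59, 9.5, 9.49 and 9.07 in the controls and 10.57, 11.11, 10.25 and 10.53 in the swim arrays. It rose by 1.45 ± 0.22, or 2.74-fold. Ppara rose by 0.31 ± 0.05, Acot3 by 0.45 ± 0.10 and Acaa1b by 0.39 ± 0.10. Ehhadh, of the peroxisome, fell by 0.35 (SE 0.05), Acot2, a mitochondrial relative of Acot3, by 0.34 (SE 0.06) and Acads by 0.31 (SE 0.07). In all, 5 of 34 rose and 6 fell, shares near those of all genes (10.8% and 13.6%), with a median of -0.02, and 12 fell under median centring. In cholesterol synthesis and uptake 5 of 21 fell and none rose in limma (0 rises in the other scalings as well), with a median of -0.13: Mvd fell by 0.62 (SE 0.08), Msmo1 by 0.43 (SE 0.10) and Hsd17b7 by 0.28 (SE 0.05). The summed signal of 11 white adipocyte markers was 8711 to 10359 in controls and 5313 to 7984 in swim kidneys, which did not overlap. Of the 10 above the filter, however, 2 fell and 8 did not pass, and the defining gene Adipoq stood at -0.32 ± 0.33 and did not pass. Any part of fat in these results was not tested.

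Mouse kidney differs between the sexes through androgen action on the proximal tubule. Of 6 measured genes known as higher in females, 4 rose (Slc7a12, Cyp4a14, Hao2 by 0.53 ± 0.13, Fmo2 by 0.42 ± 0.07), with a median of 0.48. Of 13 known as higher in males, 3 fell, with a median of -0.07. Over all genes 10.8% rose and 13.6% fell. Gusb fell by 0.59 (SE 0.09). Odc1, the polyamine enzyme, fell by 0.56 (SE 0.15) and did not pass without control replicate 9 (-0.48) or 10 (-0.50). Cyp4a12a fell by 0.65 (SE 0.19) and passed only without control replicate 11 or swim replicate 16 among the 8 fits, the other values lying between -0.70 and -0.45. Kap, the androgen-regulated protein gene, stood at 0.03 ± 0.04. The count of male-high falls was 1 without control replicate 9 or 10, and 6 under median centring. Hao2 did not pass with that centring.

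Havcr1 and Lcn2, used as markers of tubular injury, fell in swim kidneys, while most of the injury list did not pass. Havcr1 (KIM-1, probe set 10375463), which injured proximal tubules make, read 8.23, 8.27, 8.99 and 8.38 in the controls and 7.46, 7.41, 7.48 and 7.57 in the swim arrays, and fell by 0.99 (SE 0.14), or 1.99-fold (limma adjusted p = 0.00142). Lcn2 (probe set 10481627), the iron-siderophore binding protein NGAL, read 7.98, 8.16, 8.80 and 7.98 against 6.87, 6.87, 7.25 and 7.07, and fell by 1.22 (SE 0.17). Control replicate 11 was the highest array for both, and the other 3 controls were still above all the swim arrays. Clu (clusterin) fell by 0.51 (SE 0.08) and Cd44 by 0.40 (SE 0.06). Of 19 measured injury genes, 5 fell and 0 rose in limma, with a median of -0.06, so most members did not pass. Fgg, a fibrinogen chain, stood at 0.85 ± 0.43 with 9.82 in swim replicate 14 and did not pass; with the values as deposited it was called higher, making 1 rise there.

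Cdkn1a (p21), a cell cycle inhibitor induced by p53 and by stress, fell by 1.25 (SE 0.15), from 7.63, 7.89, 8.49 and 7.82 to 6.79, 6.60, 6.74 and 6.71. Among 18 p53 targets 3 fell, the others being Perp by 0.26 (SE 0.04) and Aen by 0.37 (SE 0.07). In that list 2 rose, with Pmaip1 at 0.41 ± 0.09, and 1 rose without control replicates 9, 10 or 11 or swim replicates 13, 15 or 16. The shares that rose and fell were near those of all genes (10.8% and 13.6%). Of 17 immediate early genes, which rise within minutes of a stimulus, 5 fell, 1 rose and 11 did not pass, with a median of -0.16. Nr4a1 fell by 0.97 (SE 0.13), Egr1 by 0.91 (SE 0.17) and Zfp36, which destabilizes cytokine mRNA, by 0.30 (SE 0.06). Ccn2, a matrix-cell signal, was the one that rose, by 0.49 ± 0.11, and it did not pass under median centring.

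Most macrophage markers fell. Of 15 macrophage markers above the filter, 13 fell and 0 rose in limma, with a median of -0.56, and their summed signal, over all 20 markers on the array, was 2728 to 3182 in controls and 1686 to 2143 in swim kidneys. Laptm5 (probe set 10508663), a lysosomal protein gene of white blood cells, read 8.37, 8.41, 8.42 and 8.31 against 7.71, 7.26, 7.34 and 7.20, and fell by 1.0 (SE 0.10). Cx3cr1, the fractalkine receptor of resident macrophages, fell by 0.84 (SE 0.10), Cd68 by 0.75 (SE 0.06), Mpeg1 by 0.66 (SE 0.07) and Ctss by 0.47 (SE 0.05). Cx3cr1 was above the filter only through its controls (mean 6.37, against 5.53 in swim kidneys). It was not tested without the 3 dimmest arrays. Csf1r, the receptor that macrophages need to survive, stood at -0.15 ± 0.06 and did not pass. Mrc1 and Cd163 were below the filter. Of 16 T and natural killer cell markers on the array 15 were below the filter, as were all 12 of neutrophils, so these cells could not be followed. Cd72, a B cell surface gene also found on other leukocytes, fell by 1.0 (SE 0.09).

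Of 21 measured cytokine, chemokine and adhesion genes, 10 fell and 1 rose, with a median of -0.24. Cxcl10 (probe set 10531415), an interferon-induced chemokine, read 6.82, 6.84, 7.09 and 6.64 in the controls and 5.90, 5.86, 5.65 and 5.51 in the swim arrays, a fall of 1.12 (SE 0.11). Ccl2, which draws monocytes, fell by 0.78 (SE 0.14), but was below the filter and so not tested without control replicate 10 or 11 or without the 3 dimmest arrays. Ccl5 fell by 0.73 (SE 0.09), Cx3cl1, the ligand of CX3CR1, by 0.41 (SE 0.07), Il34, a ligand of CSF1R made by tubules, by 0.67 (SE 0.14) and Tgfb1 by 0.32 (SE 0.07). Cxcl12, a chemokine of stromal and endothelial cells, rose by 0.61 ± 0.08. The count of falls was 6 without control replicate 10, and 2 or 3 genes rose without control replicates 11 or 12 or swim replicate 14. Ccl28, an epithelial chemokine, stood at -1.38 ± 0.51 and did not pass, although it was called with the values as deposited: swim replicates 13 and 14 (7.26 and 7.65) were far below the controls (9.34 to 10.34), and swim replicates 15 and 16 (9.21 and 9.92) were not.

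All 6 measured MHC class II genes fell, with a median of -0.49, among them Cd74, the invariant chain, by 0.78 (SE 0.09) and H2-Aa by 0.54 (SE 0.06). In MHC class I and the immunoproteasome 4 of 13 fell, with Tap1 at -0.33 ± 0.06 and Psmb8 at -0.29 ± 0.06. Of 22 interferon-stimulated genes, 6 fell and 0 rose in limma, with a median of -0.16, including Ifi27l2a by 1.08 (SE 0.20), the interferon regulator Irf7 by 0.66 (SE 0.07) and Rtp4 by 0.49 (SE 0.05). The interferon element GAAANNGAA was in a promoter of 10 of the 17 members with one, against 8.56% of all promoters counted singly. It was in 0 of the 2 members with a promoter that fell. In the complement system 3 of 13 genes rose and 4 fell, against 10.8% and 13.6% of all genes. The C1q chains, which macrophages make, fell (C1qa by 0.59, SE 0.10; C1qb by 0.60, SE 0.11; C1qc by 0.43, SE 0.10). Cfi, the protease that cuts C3b and C4b, moved the other way: it read 5.57, 5.40, 5.63 and 5.64 in the controls and 6.96, 7.06, 6.43 and 5.95 in the swim arrays, a rise of 1.04 ± 0.21, with the swim arrays more spread than the controls. The fall of the macrophage markers accompanies these groups, and its part in them was not tested.

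Several genes of the vessel wall rose. Of 11 measured markers of pericytes, mesangial cells and smooth muscle, 5 rose and 0 fell in limma, with a median of 0.20. Myh11 (probe set 10437885), the smooth muscle myosin, read 6.73, 6.68, 6.58 and 6.61 in the controls and 7.52, 7.98, 7.67 and 7.5 in the swim arrays, a rise of 1.02 ± 0.10, or 2.03-fold (limma adjusted p = 0.000250). Rgs5 (probe set 10351455), a pericyte regulator of G protein signals, read 7.88, 7.87, 7.73 and 7.73 against 8.81, 8.84, 8.67 and 8.70, a rise of 0.95 ± 0.06. Cnn1 (calponin) rose by 0.74 ± 0.08, Acta2 by 0.52 ± 0.09 and Itga8, of mesangial cells, by 0.53 ± 0.12, while Tagln stood at 0.17 ± 0.11 and did not pass. The summed signal of these markers was 2765 to 2937 in controls and 3415 to 3926 in swim kidneys. Ptgis, which makes prostacyclin, rose by 0.47 ± 0.07 and Prkg1, the cGMP kinase of smooth muscle, by 0.37 ± 0.06.

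Of 19 endothelial markers, 6 rose and 1 fell, with a median of 0.01; 3 rose without control replicate 9 or 11 or swim replicate 14, and 2 under median centring. In the angiogenesis list 8 of 20 rose and 0 fell in limma, with a median of 0.13. The rises were 5 without control replicate 10 or swim replicates 14 or 15, and under median centring 4 rose and 2 fell. Without the 3 dimmest arrays 0 rose, and of the 16 named vessel and matrix genes that passed, 6 did so again. Notch1 rose by 0.33 ± 0.07 and Flt1 by 0.24 ± 0.05. Sox17, of arterial endothelium, rose by 0.40 ± 0.07 and Emcn by 0.25 ± 0.06 (not under median centring), while Plvap, of fenestrated endothelium, fell by 0.29 (SE 0.05). Of 30 matrix genes, 6 fell and 1 rose, with a median of -0.03, against 13.6% and 10.8% of all genes. Without the 3 dimmest arrays 1 matrix gene fell. Col1a1 fell by 0.51 (SE 0.13), Col3a1 by 0.49 (SE 0.09), Loxl1, which crosslinks elastin, by 0.33 (SE 0.06) and Sparc by 0.28 (SE 0.06). The 1 rise was lost without control replicates 9, 10 or 12 or swim replicates 13 or 15 and became 2 without control replicate 11.

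**Figure D5:**
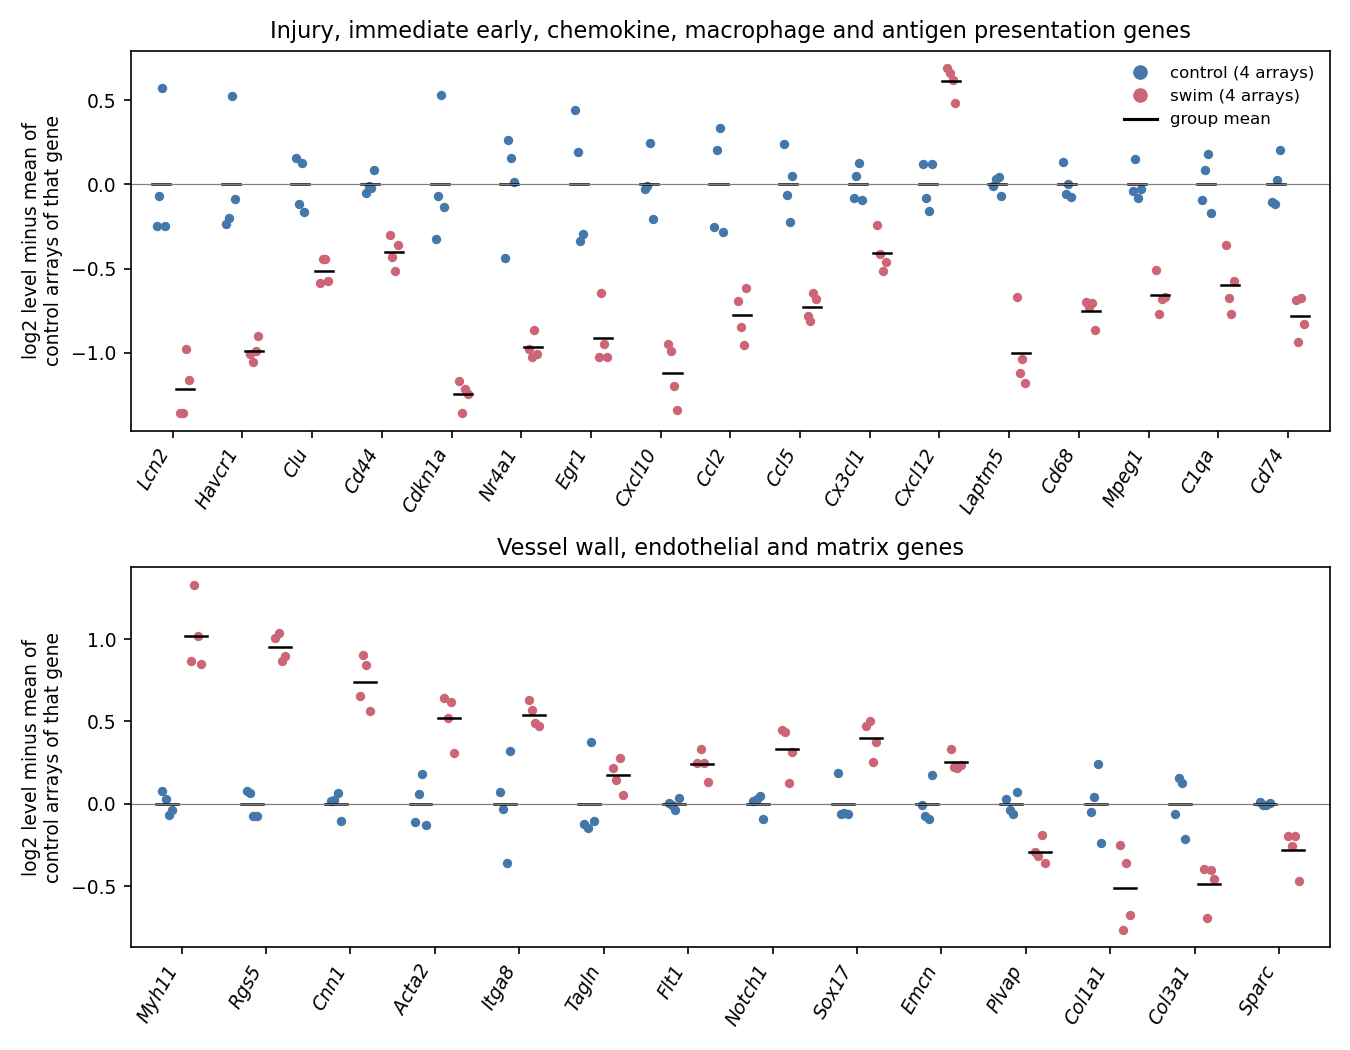
Log2 level in each kidney array (4 control, blue; 4 swim, red) minus the mean of that gene's control arrays, for injury, immune, vessel and matrix genes, with a line at each group mean. Cxcl12 stands above its controls in every swim array while the other genes of the upper panel stand below theirs, and Myh11 and Rgs5 have the largest rises of the lower panel.

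Serine and glycine synthesis feeds one-carbon metabolism and is induced by ATF4. Psat1 (probe set 10466410) read 9.22, 9.01, 9.09 and 9.02 in the controls and 8.43, 8.31, 8.38 and 8.54 in the swim arrays, and fell by 0.67 (SE 0.07). Asns, asparagine synthetase, fell by 0.46 (SE 0.05), Shmt2 by 0.40 (SE 0.06) and Mthfd2 by 0.31 (SE 0.06). The gene Atf4 itself rose by 0.28 ± 0.05. The list had 5 falls and 2 rises among 17, and 1 rise without control replicates 11 or 12 or swim replicate 13. In glycolysis 6 of 18 fell, with a median of -0.07, among them Pfkp by 0.47 (SE 0.08), Pgam1 by 0.41 (SE 0.05) and Aldoa by 0.22 (SE 0.05). The 1 rise was lost without control replicates 10, 11 or 12 or swim replicates 14 or 16.

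Some genes of iron and heme handling fell. Tfrc (probe set 10435075), the transferrin receptor, read 8.78, 8.97, 8.73 and 8.65 in the controls and 8.11, 7.57, 7.92 and 7.80 in the swim arrays, and fell by 0.93 (SE 0.11), or 1.91-fold. Slc46a1, a folate and heme carrier, fell by 0.58 (SE 0.07), Slc11a2 (DMT1) by 0.32 (SE 0.06) and Ftl1, ferritin light chain, by 0.39 (SE 0.09). Of 22 iron and heme genes, 7 fell and 1 rose, with a median of -0.02; 2 rose without control replicate 11 or swim replicates 15 or 16. Among 29 targets of the antioxidant regulator NRF2, 9 fell and 2 rose, with a median of -0.05. Gstp1 fell by 0.44 (SE 0.07), Pgd, of the pentose phosphate pathway, by 0.42 (SE 0.07) and Srxn1 by 0.30 (SE 0.05), and Osgin1 rose by 0.42 ± 0.10 (not under median centring). Of 37 proteasome subunits 10 fell and 0 rose in limma, with a median of -0.11 and Psmb2 at -0.39 ± 0.06; the count was 5 without control replicate 9 or swim replicate 16, 6 without swim replicate 15, and 20 under median centring.

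Heat shock chaperones refold proteins after heat or strain. Of 23 measured, 7 rose and 1 fell, with a median of 0.12. Dnajb1 read 7.64, 8.12, 7.98 and 8.11 in the controls and 8.72, 8.79, 8.67 and 8.84 in the swim arrays, a rise of 0.79 ± 0.10. Hsph1 rose by 0.53 ± 0.12, Dnajb4 by 0.47 ± 0.10 and Bag3 by 0.36 ± 0.08. Hspb1 (HSP27) rose by 0.57 ± 0.15, but did not pass without control replicate 9 (0.48) or 12 (0.54). Hspb6, a small heat shock protein of muscle, fell by 0.51 (SE 0.08). The heat shock element core GAANNTTC was in a promoter of 11 of the 20 members with one, against 7.86% of all promoters counted singly. It was in 4 of the 7 that rose and in the 1 that fell. The promoter of Hspb1 is shown because it holds this core in a pair, in capitals.
Hspb1, chr5:135887782-135887849, plus strand, bases -137 to -70 (RefSeq, GRCm38.p6): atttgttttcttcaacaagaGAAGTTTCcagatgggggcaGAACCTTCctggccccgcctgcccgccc

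Of 21 measured genes of insulin signalling, 8 rose and 1 fell, with a median of 0.13. Irs1, the docking protein of the insulin receptor, read 7.13, 7.30, 7.29 and 7.28 in the controls and 7.69, 7.81, 7.59 and 7.65 in the swim arrays, a rise of 0.43 ± 0.06. Pik3r1, a regulatory subunit of PI3 kinase, rose by 0.36 ± 0.05 and Foxo1 by 0.27 ± 0.05. Igfbp1, a binding protein that insulin represses in liver, fell by 0.89 (SE 0.21). Without swim replicate 14 the counts were 4 and 3, and 5 rose without control replicate 11 or 12. Of 21 hypoxia-responsive genes, 8 rose and 2 fell, with a median of 0.09: Epas1 (HIF-2 alpha) rose by 0.28 ± 0.05, Hif3a by 0.34 ± 0.09, Bnip3 by 0.26 ± 0.05 and Vegfa by 0.24 ± 0.06. The rises were 5 without control replicates 9 or 10 or swim replicates 15 or 16, and the falls were 0 without control replicate 9 or swim replicate 15 and 1 without control replicate 10 or swim replicate 16. Under median centring 4 rose, and Bnip3 and Vegfa did not pass.

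Few mitochondrial genes passed. Of 71 respiratory chain subunits, 3 rose and 7 fell, with a median of 0.00, against 10.8% and 13.6% of all genes. Ndufb7 fell by 0.30 (SE 0.05) and Uqcr11 by 0.24 (SE 0.04). The rises were 1 without control replicates 9 or 10 or swim replicate 15. Under median centring 0 rose and 23 fell, so this near balance depends on the scaling. Ppargc1a, the coactivator that drives mitochondrial biogenesis, rose by 0.33 ± 0.05, the only one of 15 regulators measured that passed. Idh2 of the citric acid cycle rose by 0.20 ± 0.05, but not under median centring.

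Among the largest changes in either direction were genes outside these lists. Ces2b (probe set 10574511), a carboxylesterase whose relatives are near-identical, read 10.01, 9.33, 9.42 and 9.26 in the controls and 7.74, 7.09, 8.0 and 7.99 in the swim arrays, and fell by 1.80 (SE 0.21), or 3.48-fold (limma adjusted p = 0.000521). Ces1g, of the same family, fell by 1.03 (SE 0.22). Ppard, a nuclear receptor for fatty acids, fell by 1.02 (SE 0.11), Slc16a6 by 1.04 (SE 0.07) and the transcript 9030619P08Rik by 1.21 (SE 0.21). Kynu (probe set 10471912), kynureninase of tryptophan breakdown, read 6.84, 6.71, 7.24 and 7.01 against 8.36, 8.78, 7.92 and 7.5, and rose by 1.19 ± 0.23. Kcnt1, a sodium-activated potassium channel, rose by 0.97 ± 0.09 and Id1, a target of BMP signals, by 0.94 ± 0.21.

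Among noncoding transcripts, read against 10.8% of all genes higher and 13.6% lower, no difference in share was tested. Of 114 long noncoding RNAs measured, 25 rose and 5 fell, including Gdap10 (0.72 ± 0.06), Lncpint (0.66 ± 0.07) and Malat1 (0.35 ± 0.07, not under median centring). Of 42 small nucleolar RNAs, 8 rose and 1 fell. Snora73a and Snora73b, near-identical copies that guide ribosomal RNA processing, rose by 1.08 ± 0.06 and 1.12 ± 0.07, Snord104 by 0.88 ± 0.12 and Snord14e by 0.82 ± 0.11, and Snora44 fell by 0.94 (SE 0.11). Of 49 microRNA genes 8 rose and 0 fell in limma. An array of total RNA reads the hairpin or its host transcript here, not the mature microRNA. The 4 of smallest p were Mir505 (0.45 ± 0.07), Mir365-2 (0.34 ± 0.06), Mir455 (0.28 ± 0.05) and Mir218-1 (0.27 ± 0.05). Mir505 read 7.80, 7.89, 7.85 and 7.89 in the controls and 8.45, 8.34, 8.13 and 8.30 in the swim arrays. Mature sequences of these 4 genes, from RefSeq, are shown with the seed, bases 2 to 8, in capitals. The seed sets the targets a microRNA can pair with. The other arms of Mir365-2 and Mir218-1, mmu-miR-365-2-5p and mmu-miR-218-1-3p, are not printed.
mmu-miR-505-3p: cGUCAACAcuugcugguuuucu
mmu-miR-505-5p: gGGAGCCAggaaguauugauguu
mmu-miR-365-3p: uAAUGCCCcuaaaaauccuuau
mmu-miR-455-5p: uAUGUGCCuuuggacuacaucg
mmu-miR-455-3p: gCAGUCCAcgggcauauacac
mmu-miR-218-5p: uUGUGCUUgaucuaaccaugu
No seed was shared between these genes.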

How the data were processed

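Total RNA of whole kidney was measured on Affymetrix mouse gene arrays. The values used are linear probe set intensities deposited by the authors, made with PLIER and analysed with limma per the submitters' processing notes; versions, genome build and further steps are not given in the sources used here. Only arrays whose labels give kidney, control or swimming were compared. Of 25917 probe sets, 21086 had 1 gene symbol.

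Here log2(intensity + 16) was quantile normalized within kidney, the lowest 40% of probe sets were left out, each gene was read from its brightest probe set on average, and swim was tested against control with limma 3.58.1 (R 4.3.3, Benjamini-Hochberg adjusted p of 0.05, two-sided). Differences between tissues used each tissue's own moderated variance. In data simulated for 11610 genes, the kidney test found 88.0% of genes changed by 0.5 log2 units and 99.0% of those changed by 1, with 2.60% of calls on unchanged genes. The test of differences found 77.0% and 95.0%, with 5.49%. Noise was drawn independently for each gene on normalized levels, with no scaling step, so the simulation cannot show how calls depend on scaling. For the test of differences, the other tissue was given kidney levels and spreads.

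Members and lists were chosen with earlier results of these data known. Named genes are the 15 largest rises and falls with non-overlapping arrays, up to 4 members of each list by smallest p (2 where none passed), defining genes of segments and tissues, chosen regulators and, for differences, the 5 of smallest p in each direction and the clock genes; a part of these is named. Named after their values were seen were Clock, Cry2, Nr1d2, Rora, Tef, Hlf, Usp2, Coq10b, Zbtb16, Fkbp5, Pdk4, S100g, Cyp24a1, Cyp27b1, Car4, Acot3, Acads, Acaa1b, Ccn2, Ccl2, Il34, Tgfb1, Cx3cr1, C1qc, Csf1r, Itga8, Tagln, Mthfd2, Osgin1, Hsph1, Hspb1, Igfbp1, Ccl28, Fgg, Mir505, Mir365-2, Mir455, Mir218-1, Snora44, Snord14e, Lncpint, Malat1 and Gdap10. Alternatives were other scalings, pseudocounts, filters, probe set summaries, variance options, array weights, a fit of all 54 arrays, a brown adipocyte covariate and leaving out each array; an array signal covariate and leaving out the 3 dimmest arrays were added after seeing the data. The precision is limited by the 4 arrays in each group.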

Additional observations from a re-analysis of the deposited data

Results flagged for a closer look

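In 14 of 394 groups of 4 kidney arrays (197 genes, 3.55%), 1 array stood far from the other 3 by Dixon's criterion; chance marks about 5% of groups. Among controls these were replicate 12 for Rora (9.07), replicate 11 for Tef (9.30), C1qc (7.39) and Tagln (8.07), replicate 10 for Dusp1 (10.37), and replicate 9 for Slc34a1 (13.58), Rtp4 (7.07), Sox17 (6.41) and Irs1 (7.13). Among swim arrays they were replicate 14 for Acot2 (9.99) and Hspb1 (8.75), replicate 16 for Cd68 (6.03) and Igfbp1 (6.18), and replicate 13 for Emcn (10.86). All are log2 levels.

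The swim effect in kidney differed from that in liver, by the test of the difference, for Hamp2 (-4.42), Mfsd2a (-3.94), Usp2 (-2.21), Ciart (-1.62), Slc20a1 (-1.32), Wee1 (-1.27), Acss3 (-1.04), Wdr83os (-1.02), Phxr4 (0.68), Syne1 (0.83), Lonrf3 (0.98), Arntl (1.0) and Folr2 (1.5), as kidney minus liver in log2 units. It differed from that in visceral fat for Rbm38 (-1.59), Ciart (-1.27), Hlf (-1.23), Per3 (-0.97), Tef (-0.79), Arntl (0.91), Ston1 (0.94), Lonrf3 (1.2), Angpt1 (1.21) and Sfrp2 (1.53).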

How the results depend on the processing

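The count of 2836 genes (1258 higher, 1578 lower, 3214 with arrays apart) stayed within 1.5 times under other pseudocounts, filters, probe set summaries, variance options, array weights and both covariates. With the values as deposited it was 42 (28 higher, 14 lower, 104 apart), in 1 fit of all 54 arrays 382 (128 and 254), and without the 3 dimmest arrays, which leaves fewer samples, 1074 (413, 661 and 5693 apart). With arrays centred on their medians 735 were higher. With each array left out in turn it was 2119 to 2467, with 901 to 1014 higher, 1212 to 1454 lower and 3615 to 3907 apart. Differences from liver passed for 70 genes as deposited, 402 centred and 483 to 820 with an array left out, against 803, and differences from visceral fat for 83, 2679 and 819 to 1270, against 1255. Apart from fewer samples, the cause was not tested.

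Changes of sign were seen only in values that did not pass. Fkbp5 was 0.00 as deposited and without the 3 dimmest arrays, and -0.20 to 0.04 with an array left out. Sgk1 was -0.12 without the 3 dimmest arrays, Kap was -0.10 when centred, and Adipoq was -0.50 to 0.03 with an array left out. With an array left out, kidney minus liver was -0.06 to 0.40 for Per2, and kidney minus fat was -0.02 to 0.23 for Npas2 and -0.18 to 0.14 for Per2, which was 0.13 as deposited and 0.09 centred.

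No paired analysis was made, because replicate numbers run on through all tissues and do not show which arrays came from the same mouse. The test of differences between tissues took the tissues as independent. Dim probe sets, below the filter at 5.80, limit what can be said of lymphocytes and neutrophils.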
